A study of Homo sapiens with 4 samples.

Results

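The APOBEC3 genes encode cytidine deaminases that turn cytosine into uracil in single-stranded DNA. The family holds 7 genes, APOBEC3A, APOBEC3B, APOBEC3C, APOBEC3D, APOBEC3F, APOBEC3G and APOBEC3H, which lie side by side on human chromosome 22. Members were chosen by gene symbol, and every probe set annotated to one of the 7 symbols was kept. The family itself was taken up with earlier signal values of these same 4 arrays in view, so its values are a description and were not tested. On the array 18 of 49293 gene probe sets carried a member symbol. Of these, 15 named 1 member, which covered 6 genes, and 3 named several genes and are given apart. APOBEC3A had no probe set of its own alone.

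APOBEC3 proteins are known as a barrier against retroviruses and retrotransposons, whose DNA they load with uracil. APOBEC3A, APOBEC3C and APOBEC3H have a single zinc-binding deaminase domain, and APOBEC3B, APOBEC3D, APOBEC3F and APOBEC3G have a pair of them. APOBEC3B is mainly nuclear, and together with APOBEC3A it is linked to cytosine mutations in tumour genomes, lung cancers among them.

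The RNA was that of A549, a cell line long established from a human lung adenocarcinoma, kept for 48 h under 4 conditions with 1 array each. Cells received 25 μmol/L dihydroberberine, the reduced counterpart of berberine, an alkaloid made by plants, or 2 μmol/L sunitinib, an inhibitor of receptor tyrosine kinases, or both drugs at those doses, or were left untreated. All were grown in 6-well plates in the same medium, and no vehicle is named for the untreated cells. With 1 array a condition no difference has a replicate check, so "higher" and "lower" compare single arrays and no p-value is given. In bulk RNA, fewer cells that express a gene and less RNA per cell cannot be told apart.

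Medians over gene probe sets lay between log2 6.73 and 6.76 on the 4 arrays, which correlated at r of 0.986 to 0.994 across probe sets. The median of all gene probe set values, log2 6.75, served as a floor for dim probe sets, and is not a limit of detection. Background probe sets, grouped by 15 to 25 G or C bases a probe, read 7.15 at the median with dihydroberberine, 6.99 with sunitinib, 6.95 with both drugs and 6.70 without drug. The dihydroberberine array also stood apart in the Alu control (-0.41 on the log2 scale against untreated) and the 18S rRNA controls (-0.63), where the array with both drugs differed by 0.03 and -0.21. Of 11 markers of epithelium and A549 cells 9 lay above the floor on all 4 arrays, among them KRT8, KRT18 and NQO1, while EPCAM and CDH1 lay under it on all 4. All 7 leukocyte markers on the array, PTPRC and CD3E included, lay under the floor on all 4 arrays. Above it on all 4 lay 4 of 6 alveolar, 1 of 3 endothelial and 0 of 4 fibroblast markers. The floor lay under the background medians of the treated arrays, so passing it does not by itself show expression.

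APOBEC3B, the nuclear deaminase linked to tumour mutations, was lower with each drug and lowest with both. Its probe set (11732902_x_at) read log2 8.91 with dihydroberberine, 8.94 with sunitinib and 8.10 with both drugs, against 10.00 in untreated cells. The single-drug arrays lay close to each other, the array with both drugs lay below them, and all 3 were under the untreated array. Dihydroberberine alone gave a 2.12-fold lower signal than no drug (log2 difference -1.08), sunitinib alone a 2.08-fold lower one (-1.06) and both drugs a 3.72-fold lower one (-1.90). All 4 values lay above the background median of their own array. Names ending in _x_at mark probe sets whose probes can also match other sequences, and APOBEC3 genes resemble each other, so the part of relatives in this signal was not tested.

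Each drug could also be read on top of the other one. The cells given both drugs had 1.79-fold less APOBEC3B signal than those given sunitinib (log2 difference -0.84) and 1.76-fold less than those given dihydroberberine (-0.81). Neither of these comparisons uses the untreated array, and the one with sunitinib does not use the dihydroberberine array either. After quantile normalization the differences from untreated were -0.95 with dihydroberberine and -0.97 with sunitinib, just under 2-fold, and -1.86 with both drugs.

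Of the 6 APOBEC3 genes measured, APOBEC3B was the member at least 2-fold lower than untreated with dihydroberberine, where 3.52% of all 10958 genes measured were. It was likewise the member at least 2-fold lower with sunitinib, against 0.584% of all genes, and with both drugs, against 1.5%. Among all genes 301 had a lower difference than the APOBEC3B probe set 11732902_x_at with dihydroberberine, 49 with sunitinib and 4 with both drugs. Those 4, looked up after their values were seen, were TMT1A, TXNIP, CD14 and CYP4X1, of which TXNIP alone was above the floor on all 4 arrays. These ranks hold for 11732902_x_at alone. Of the probe sets that name APOBEC3B with other genes, 11740442_s_at gave smaller differences from untreated of -0.68, -0.56 and -1.17. For 11732901_a_at they were -1.14, -1.08 and -1.96, and neither was ranked. No APOBEC3 gene was at least 2-fold higher than untreated, which 1.05%, 0.21% and 1.16% of all genes were with dihydroberberine, sunitinib and both drugs. In the cells given both drugs, no member passed 2-fold in either direction against sunitinib alone (0.119% of all genes lower and 0.721% higher) or against dihydroberberine alone (0.438% lower and 2.78% higher).

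**Figure D1:**
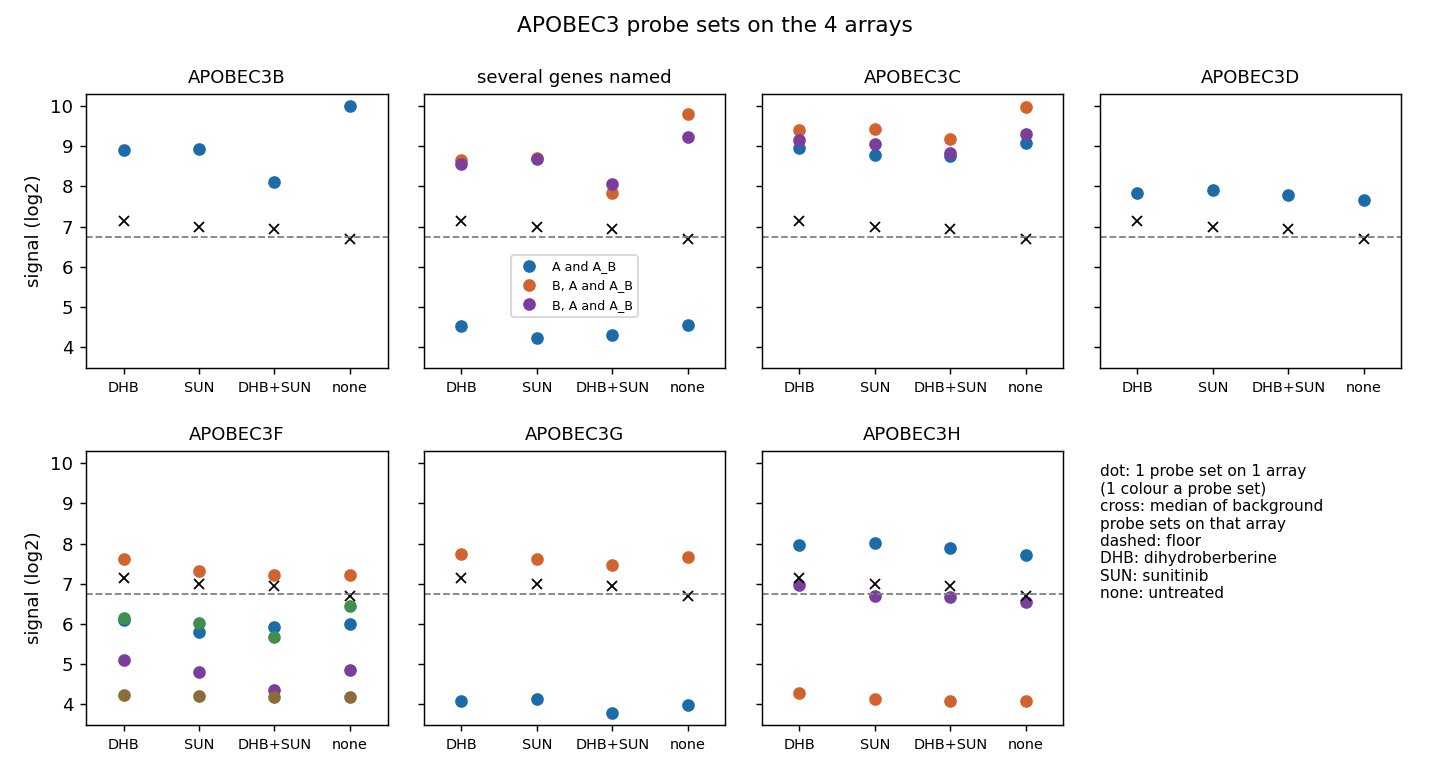
Signal (log2) of the 18 probe sets that name an APOBEC3 gene on the arrays of cells given dihydroberberine (DHB), sunitinib (SUN), both drugs or none, 1 panel a gene and 1 panel for probe sets that name several genes. Each dot is 1 probe set on 1 array, crosses are the background median of that array and the dashed line is the floor. APOBEC3B stands at 8.91, 8.94 and 8.10 on the treated arrays and at 10.00 untreated, while the probe set of APOBEC3A and APOBEC3A_B stays between 4.22 and 4.55.

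A pair of the probe sets that name several genes follow APOBEC3B. Both name APOBEC3B, APOBEC3A and APOBEC3A_B, a symbol for the hybrid gene of a common deletion that joins APOBEC3A to the end of APOBEC3B. The first (11732901_a_at) read 8.66 with dihydroberberine, 8.72 with sunitinib and 7.83 with both drugs, against 9.79 untreated. It was 3.90-fold lower with both drugs than without, and 2.20-fold and 2.11-fold lower with dihydroberberine and sunitinib alone. The second (11740442_s_at) read 8.56, 8.67 and 8.06 in the same order, against 9.24 untreated, which gave smaller folds of 1.60, 1.48 and 2.25 lower. Both had the order of the APOBEC3B probe set, with untreated highest and both drugs lowest.

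The third probe set names APOBEC3A and APOBEC3A_B without APOBEC3B (11740441_a_at). It read 4.54 with dihydroberberine, 4.22 with sunitinib and 4.30 with both drugs, against 4.55 untreated. These values lay under the floor and under the background median on all 4 arrays. APOBEC3A, best known from monocytes and keratinocytes, was thus not above background on the probe set that reads it without APOBEC3B. Over the 3 probe sets that name APOBEC3B, a grouping made after seeing the data, the mean log2 differences from untreated were -0.97 with dihydroberberine, -0.90 with sunitinib and -1.68 with both drugs.

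The summed signal of monocyte and macrophage markers was less on the treated arrays, but the markers did not go one way. Of 6 on the array, LYZ, ITGAM and CD163 lay under the floor on all 4 arrays and CD68 above it on all 4. CSF1R passed the floor with sunitinib alone. It differed from untreated by -0.08 with dihydroberberine, 0.17 with sunitinib and -0.03 with both drugs. The summed linear signal of the 6 markers was 622 with dihydroberberine, 426 with sunitinib and 362 with both drugs, against 906 untreated. The 4 fibroblast markers summed to 346, 306 and 289 on the treated arrays and 402 untreated, with 3 of them under the floor on all 4 arrays. CD14 read log2 6.75, 6.27 and 5.76 on those treated arrays and 8.82 on the untreated one. CD68 read 8.42 with dihydroberberine, 7.33 with sunitinib and 7.06 with both drugs, against 8.16 untreated, so it was higher with dihydroberberine and lower on the other treated arrays. The part of these markers in the APOBEC3B difference was not tested, and the leukocyte markers, which include PTPRC, lay under the floor throughout.

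APOBEC3C, a single-domain member found in many tissues, was lower in the same direction as APOBEC3B by less. Its brightest probe set (11758897_at) read 9.40 with dihydroberberine, 9.43 with sunitinib and 9.18 with both drugs, against 9.98 untreated. The treated arrays again lay under the untreated one, with both drugs lowest, at log2 differences of -0.58, -0.55 and -0.79. Its other probe sets, 11723956_x_at and 11758898_x_at, had the same sign in all 5 comparisons but smaller sizes. With both drugs against untreated they gave log2 differences of -0.33 and -0.47, where the brightest one gave -0.79. The mean of the 3 probe sets was -0.28 with dihydroberberine, -0.36 with sunitinib and -0.53 with both drugs. In cells given both drugs the brightest probe set was lower by a log2 difference of -0.25 than with sunitinib and of -0.21 than with dihydroberberine.

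The remaining members, known mostly as antiviral factors, varied over a narrow range. APOBEC3D (11740503_x_at) read 7.83 with dihydroberberine, 7.91 with sunitinib and 7.79 with both drugs, against 7.66 untreated. Its only probe set is of the _x_at kind, and the part of relatives in this signal was not tested. All treated values were above the untreated one, by 0.13 to 0.25 on the log2 scale. The background medians were above untreated by 0.45, 0.29 and 0.25 with dihydroberberine, sunitinib and both drugs, and their part in these small differences was not tested.

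APOBEC3H, a single-domain member whose human alleles differ in protein stability, also read higher on the treated arrays. Its brightest probe set (11736631_a_at) was at 7.97 with dihydroberberine, 8.01 with sunitinib and 7.89 with both drugs, against 7.71 untreated, or 1.20-fold, 1.23-fold and 1.13-fold higher. A dimmer probe set (11754148_a_at) read 6.96, 6.69 and 6.66 on the treated arrays and 6.54 untreated, each under the background median of its array. The third (11736632_at) stayed between 4.08 and 4.29. Beside background differences of 0.45, 0.29 and 0.25, those of the brightest probe set were 0.26, 0.30 and 0.18.

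APOBEC3G, packaged into HIV-1 particles when the viral protein Vif is missing, read 7.75 with dihydroberberine, 7.62 with sunitinib and 7.46 with both drugs, against 7.66 untreated, on its brighter probe set (11762899_at). The array with both drugs was lowest and the single-drug arrays lay on either side of the untreated one. Its other probe set (11720510_a_at) lay between 3.79 and 4.12, under the floor throughout.

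APOBEC3F, a relative of APOBEC3G with a pair of deaminase domains, had 5 probe sets that disagreed. The brightest (11741255_at) read 7.62 with dihydroberberine, 7.32 with sunitinib and 7.23 with both drugs, against 7.22 untreated, so that dihydroberberine alone stood out at 1.31-fold higher. Its difference with both drugs was 0.005 and turned to -0.02 after quantile normalization, so it has no direction. The other 4 probe sets lay under the floor on all 4 arrays, and their differences with both drugs against untreated were between -0.78 and 0.01. One of them (11741257_x_at) read 6.15, 6.02 and 5.68 on the treated arrays and 6.46 untreated, again with untreated highest and both drugs lowest.

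**Figure D2:**
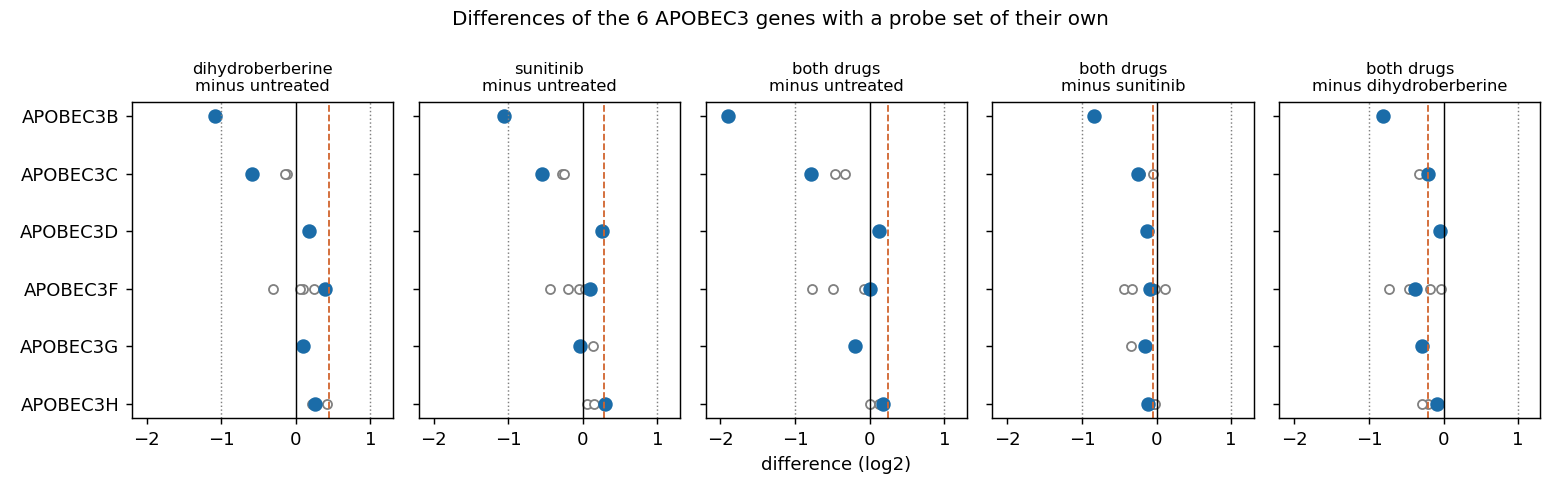
Log2 difference of the 6 APOBEC3 genes in each of 5 comparisons. Filled dots are the probe set of highest mean signal, open dots the gene's other probe sets, dotted lines 2-fold and the orange dashed line the difference of the background medians. APOBEC3B lies at -1.08, -1.06 and -1.90 against untreated, APOBEC3C at -0.58, -0.55 and -0.79, and the other 4 genes between -0.19 and 0.39.

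As a family the 6 genes did not move one way against untreated cells. With dihydroberberine 2 were lower and 4 higher, at a median log2 difference of 0.13, where 53% of all genes were lower and their median was -0.03. With sunitinib 3 were lower and 3 higher, at a median of 0.03, beside 55.6% lower and a median of -0.04 for all genes. With both drugs 3 were lower and 3 higher, at -0.09 beside 52.7% lower and -0.02 for all genes. One of the higher genes was APOBEC3F, which has no direction there. Background medians were above untreated by 0.45 with dihydroberberine, 0.29 with sunitinib and 0.25 with both drugs. Their part in these counts was not tested.

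With both drugs, each of the 6 genes was lower than with either drug alone. Against sunitinib the differences ran from -0.84 to -0.09 with a median of -0.14, where 49.2% of all genes were lower and the median of all genes was 0.00. Against dihydroberberine they ran from -0.81 to -0.04 with a median of -0.25, where 50.7% of all genes were lower and the median of all was -0.01. These comparisons share the array of both drugs. The background median was lower too, by log2 differences of -0.04 against sunitinib and -0.20 against dihydroberberine, and for every gene other than APOBEC3B the difference was 0.39 or less in size.

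**Figure D3:**
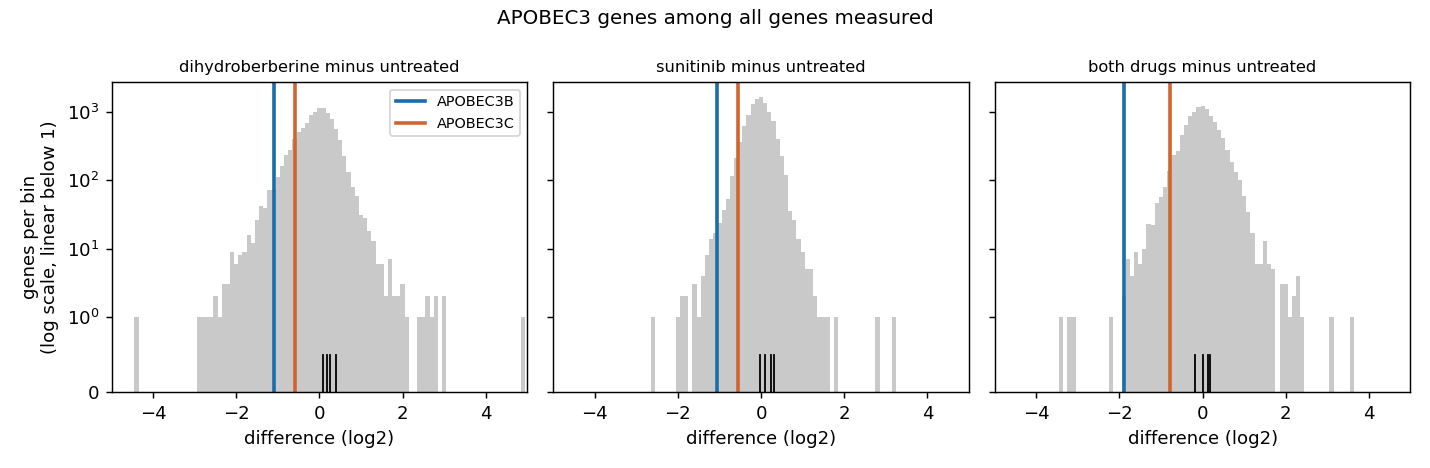
Numbers of genes by log2 difference from untreated, in bins of width 0.1 on a log axis that is linear below 1, for dihydroberberine, sunitinib and both drugs over 10958 genes. The blue line is APOBEC3B, the orange line APOBEC3C and the short black lines the other 4 APOBEC3 genes. APOBEC3B, read on probe set 11732902_x_at alone, has 301, 49 and 4 genes to its left, and the short lines lie near 0.

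On the log2 scale the difference of APOBEC3B with both drugs was set beside the sum of its single-drug differences. The sum was -2.14 and the difference with both drugs was -1.90, a deviation of 0.24. The probe sets that name APOBEC3B with other genes deviated by 0.25 and 0.07. With 1 array a condition no deviation was tested. For the brightest APOBEC3C probe set the sum was -1.13 and the difference with both drugs -0.79, a deviation of 0.34. The other APOBEC3C probe sets deviated by 0.08 and -0.08. Over all genes the deviation had a median of 0.06 and quartiles of -0.17 and 0.34. The APOBEC3B deviation thus lay between the quartiles, and that of the brightest APOBEC3C probe set at the upper one. On their brightest probe sets APOBEC3D, APOBEC3F, APOBEC3G and APOBEC3H had deviations of -0.29, -0.48, -0.25 and -0.38, all under the lower quartile. The dimmer APOBEC3F probe sets deviated by 0.02, -0.67, -0.03 and -0.07. The dimmer one of APOBEC3G deviated by -0.43 and those of APOBEC3H by -0.27 and -0.44. The background median deviated by -0.49, and its part in these values was not tested.

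Among the genes nearest the cluster on chromosome 22, CBX6 alone lay above the background median on all 4 arrays. It did not share the APOBEC3B pattern. CBX6, a Polycomb chromobox protein on the APOBEC3A side, read log2 8.34 with dihydroberberine, 9.79 with sunitinib and 9.65 with both drugs, against 9.84 untreated, so it was low on the dihydroberberine array alone. NPTXR, a receptor for neuronal pentraxins beyond CBX6, read 7.04, 7.31 and 6.91 on the treated arrays and 6.75 untreated. With dihydroberberine and with both drugs it lay under the background median. On the APOBEC3H side CBX7, another chromobox protein, lay under the floor on all 4 arrays. PDGFB is a chain of platelet-derived growth factor, whose receptors sunitinib inhibits. It read 6.87 with dihydroberberine, 6.76 with sunitinib and 6.59 with both drugs, against 6.22 untreated. Its single-drug values passed the floor, but all 4 values lay under the background median of their array, as did those of CBX7.

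The genes most like APOBEC3B over the 4 arrays were found by the root mean square distance between log2 values centred on each gene's own mean, among 9831 genes above the floor on all arrays. They were TMEM100, a membrane protein of lung endothelium and sensory neurons, at a distance of 0.13, GPX3, a secreted glutathione peroxidase, at 0.14, NMB, the peptide neuromedin B, at 0.15, and CPS1, the carbamoyl phosphate synthetase of the urea cycle, at 0.18. TMEM100 read 10.67 with dihydroberberine, 10.61 with sunitinib and 10.01 with both drugs, against 11.55 untreated. GPX3 read 10.29, 10.06 and 9.31 on the treated arrays and 10.98 untreated. On 11732902_x_at the range of APOBEC3B over the arrays, 1.90, was wider than that of all but 54 of the 9831 genes. The probe sets that name APOBEC3B with other genes had ranges of 1.96 and 1.17. For APOBEC3C the brightest probe set was used here. Its range was 0.79, which 1499 genes exceeded, where the other APOBEC3C probe sets had ranges of 0.33 and 0.47. Its closest genes were NUMA1, a mitotic spindle protein, at 0.01, HMGB3, a chromatin protein, and PSMD3, a proteasome subunit, both at 0.02, and TMEM132A at 0.03. A distance over 4 arrays describes these arrays only.

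**Figure D4:**
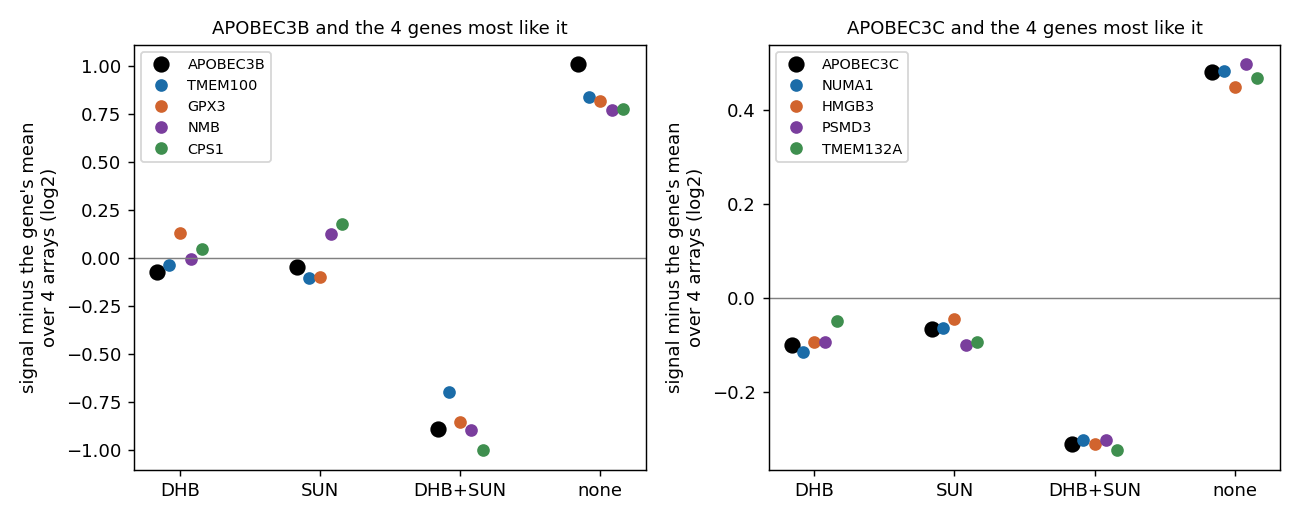
Log2 signal minus the gene's mean over the 4 arrays, for APOBEC3B (left) and APOBEC3C (right) and the 4 genes of smallest distance to each, on the arrays of dihydroberberine (DHB), sunitinib (SUN), both drugs and no drug. Each dot is 1 gene on 1 array. In both panels the untreated array is highest, the array of both drugs lowest and the single drugs lie between.

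Genes that control APOBEC3B or act after it were read from lists. APOBEC3B transcription is known to be raised by protein kinase C through noncanonical NF-kB. The list for this route joins protein kinase C and NF-kB genes with factors that restrain NF-kB, such as TRAF3. Its counts therefore give no direction for the pathway. Among all genes 52.7% were lower with both drugs than without, at a median of -0.02. Of the 16 measured genes of the list 5 were lower and 11 higher with both drugs, at a median of 0.26. BIRC2, a ubiquitin ligase of NF-kB signalling, was 2.26-fold higher, the one gene of the list past 2-fold there. PRKCE, a calcium-independent protein kinase C, had a difference of 0.76, PRKCA, a classical one, 0.56, and IKBKB, an IkB kinase, 0.55. With dihydroberberine the median of the list was 0.07 and with sunitinib 0.04. PRKCA was lower with dihydroberberine alone, at -0.78, and close to untreated with sunitinib, at -0.09. TRAF3, an adaptor that restrains noncanonical NF-kB, was past 2-fold lower with dihydroberberine alone, at -1.11.

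APOBEC3B is also known as a target that the DREAM complex and RB proteins hold down and that MYBL2 and E2F factors accompany in dividing cells. All 18 genes of that list were measured. With dihydroberberine 12 were lower and 6 higher, at a median of -0.20, with sunitinib 10 and 8 at -0.09, and with both drugs 9 and 9 at 0.00. The shares of all genes that were lower were 53%, 55.6% and 52.7%, close to the list's with sunitinib and with both drugs. MYBL2, the B-MYB factor, differed from untreated by -0.50 with dihydroberberine, -0.36 with sunitinib and -0.82 with both drugs. Its signal was lowest with both drugs, and its part in the APOBEC3B difference was not tested. FOXM1, which drives G2/M genes, differed by -1.10, -0.32 and -0.75, and E2F2, an activating E2F, by -0.88, -0.34 and -0.69. E2F5, a repressive E2F, was higher, at 0.83, 0.03 and 0.57. Past 2-fold on this list were FOXM1 and E2F3 with dihydroberberine alone, and none with sunitinib or both drugs. E2F3, an activating E2F, differed by -1.11 with dihydroberberine, -0.06 with sunitinib and 0.01 with both drugs.

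Uracil left by APOBEC3 enzymes is removed by base excision repair. Of 15 genes measured, 13 were lower with dihydroberberine (median -0.15), 9 with sunitinib (-0.07) and 9 with both drugs (-0.29). Among all genes 53%, 55.6% and 52.7% were lower, at medians of -0.03, -0.04 and -0.02, so the counts with sunitinib and with both drugs were near those shares. UNG, the main uracil DNA glycosylase, read 9.59 with dihydroberberine, 10.09 with sunitinib and 9.62 with both drugs, against 10.41 untreated, or 1.74-fold lower with both drugs. FEN1, the flap endonuclease, was 1.94-fold lower with both drugs, LIG1, a DNA ligase of replication and repair, 1.68-fold and PARP1, the poly(ADP-ribose) polymerase, 1.59-fold. FEN1 was past 2-fold with dihydroberberine alone, at a log2 difference of -1.46. For these 4 genes adding sunitinib to dihydroberberine gave differences between -0.03 and 0.50, where APOBEC3B had -0.81. Adding dihydroberberine to sunitinib gave -0.74 for FEN1, -0.47 for UNG, -0.43 for LIG1 and -0.29 for PARP1. These had the sign of APOBEC3B, at -0.84.

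Several APOBEC3 genes are induced by interferon. Of 27 interferon genes measured, 14 were lower and 13 higher with dihydroberberine (median -0.005), 21 and 6 with sunitinib (-0.25), and 19 and 8 with both drugs (-0.26). The shares of all genes lower were 53%, 55.6% and 52.7%, and the count with dihydroberberine was near its share. IFITM1, a membrane protein that blocks virus entry, was 2.06-fold lower with both drugs, the one gene of the list past 2-fold. IRF9, which joins STAT proteins on interferon-stimulated genes, differed from untreated by -0.005 with dihydroberberine, -0.73 with sunitinib and -0.69 with both drugs, so it was low on the arrays with sunitinib. TYK2, a kinase of the interferon receptor, differed by -0.63, -0.30 and -0.75. IFNGR1, a chain of the interferon gamma receptor, was higher, at 0.65, 0.23 and 0.70. Among the APOBEC3 genes APOBEC3G, at 0.09, -0.04 and -0.19 on its brighter probe set, stayed within 0.2 of untreated on all 3 treated arrays. The part of interferon signalling in the values of any APOBEC3 gene was not tested.

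Of 15 other retrovirus restriction factors 10 were measured. With dihydroberberine 8 were lower (median -0.27), with sunitinib 9 (-0.15) and with both drugs 6 (-0.23). Beside the 53%, 55.6% and 52.7% of all genes that were lower, the count with both drugs was near its share. SAMHD1, which depletes the nucleotides that reverse transcriptase uses, read 6.98 with dihydroberberine, 7.73 with sunitinib and 7.46 with both drugs, against 8.04 untreated. TRIM5, which binds incoming capsids, differed by -0.28, -0.48 and -0.57, and SLFN11, which limits viral protein synthesis, by -0.59, -0.31 and -0.56. IFI16, a DNA sensor, was higher with both drugs, at 0.55. Past 2-fold were SAMHD1 and ZC3HAV1, both with dihydroberberine alone, at -1.06 and -2.89, with ZC3HAV1 under the floor on 1 array.

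**Figure D5:**
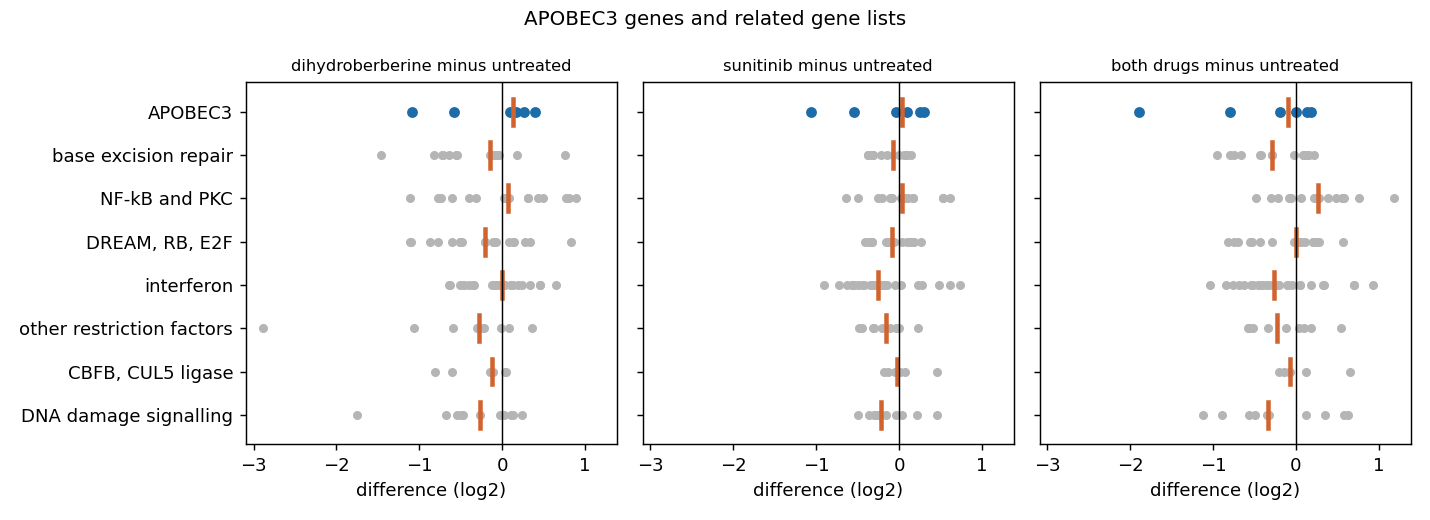
Log2 difference from untreated with dihydroberberine, sunitinib and both drugs for the 6 APOBEC3 genes (blue) and the measured members of 7 related lists (grey), 1 dot a gene, with the median of each list as an orange bar. With both drugs APOBEC3B, at -1.90, lies left of every member of the other lists, the lowest of which is H2AX at -1.13.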

How the data were processed

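The deposited values are log2 probe set signals of 4 Affymetrix arrays. Per the submitters' processing notes the authors used Affymetrix Expression Console. Not given in the sources used here were its version, the summarization and any scaling, and the log2 scale was read from the values. The labels' protocols describe a 3′ IVT kit with biotin, whereas the design text names an Agilent array. Probe set names are Affymetrix's. No test suits 1 array a condition, so differences of log2 values are given. Probe sets were named through the platform annotation, in which 44988 of 49293 had 1 symbol, 1832 several and 2473 none. RefSeq gene identifiers (GRCh38.p14) covered 44961 of them and changed 0 symbols. RefSeq also gave the gene order.

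The probe set with the highest mean over the arrays stood for each of 18132 genes, and 10958 genes with at least 1 array at or above the floor (50th percentile) were kept. A gene counted as changed at 2-fold. With no replicates, the spread between probe sets of 1 gene (median SD between 0.13 and 0.17 over 11734 genes) was the yardstick for alternatives. It does not measure the error between cultures.

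Members, lists and the naming rule were chosen with earlier results of these data known. All members were named, and from each list up to 4 genes above the floor on all arrays with the largest difference of both drugs from untreated. Other list genes past 2-fold against untreated were named beyond that rule, after their values were seen. Lists covered other AID/APOBEC deaminases, base excision repair, NF-kB and protein kinase C, DREAM and E2F, interferon, restriction factors, the CBFB and CUL5 ligase, DNA damage signalling and cell type markers. The counting was tested on simulated data. Python 3.11.15, numpy 2.4.6 and pandas 2.3.3 were used.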

Additional observations from a re-analysis of the deposited data

Results flagged for a closer look

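For 4 APOBEC3 genes the difference made by dihydroberberine had opposite signs without and with sunitinib. Against untreated and against sunitinib, it was 0.17 and -0.12 for APOBEC3D, 0.39 and -0.09 for APOBEC3F, 0.09 and -0.16 for APOBEC3G and 0.26 and -0.12 for APOBEC3H, all on the log2 scale.

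For 3 of them the difference made by sunitinib also had opposite signs without and with dihydroberberine. It was 0.25 and -0.04 for APOBEC3D, 0.10 and -0.39 for APOBEC3F, and 0.30 and -0.08 for APOBEC3H. With 1 array a condition none of these oppositions was tested. The background medians changed sign in the same places, at 0.45 and -0.04 for dihydroberberine and 0.29 and -0.20 for sunitinib, and their part was not tested.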

How the results depend on the processing

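No paired analysis was possible because each condition had 1 array. APOBEC3B kept its sign in all 25 values under the settings chosen with the design, most of which leave a bright single probe set unchanged by construction. Quantile normalization put it just under 2-fold with each single drug, at -0.95 and -0.97. Without the _s_at and _x_at probe sets APOBEC3B and APOBEC3D had no value. The mean of the 3 probe sets that name APOBEC3B, chosen after seeing the data, was -1.68 with both drugs. For the other genes 109 of 110 values kept their sign, the exception being APOBEC3F with both drugs against untreated. Most settings left these values unchanged by construction as well. Averaged probe sets gave no value for APOBEC3F, APOBEC3G and APOBEC3H, so this count says little about how stable those genes are.

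The family median depended on which members were left. With dihydroberberine, sunitinib and both drugs against untreated it was -0.83, -0.80 and -1.35 at the 75th percentile floor, which left 2 members, and -0.28, -0.36 and -0.53 with the mean of all probe sets, which left 3. It stayed within the yardstick without the _s_at and _x_at probe sets, which left 4, and for both drugs against each single drug with averaged probe sets. At that floor it was -0.54 for both drugs against sunitinib and -0.51 against dihydroberberine.

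Genes past 2-fold in either direction, in the order dihydroberberine, sunitinib and both drugs against untreated, then both drugs against sunitinib and against dihydroberberine, numbered 501, 87, 291, 92 and 353. At 1.5-fold they numbered 1910, 590, 1544, 553 and 1432, and with probe sets averaged per gene 244, 51, 174, 57 and 133. At the 75th percentile floor the last 4 were 49, 182, 59 and 224. Signals near the background medians limit what the dim members can show.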

Other observations

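Of the other AID/APOBEC deaminases, APOBEC1, which edits apolipoprotein B RNA, and APOBEC4 had a probe set with 1 symbol, and both lay under the floor on all 4 arrays. APOBEC4 read log2 5.40 with dihydroberberine, 5.11 with sunitinib and 5.11 with both drugs, against 4.79 untreated.

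HIV-1 Vif removes APOBEC3 proteins through a ubiquitin ligase of CUL5 and the cofactor CBFB. Of 6 measured genes of this ligase 4 were lower with dihydroberberine (median -0.12), 3 with sunitinib (-0.02) and 4 with both drugs (-0.08). Among all genes 53%, 55.6% and 52.7% were lower, and the count with sunitinib was near its share. CUL5 read 8.45 with dihydroberberine, 9.50 with sunitinib and 9.71 with both drugs, against 9.05 untreated. CBFB read 10.34, 11.22 and 11.27 on the treated arrays and 11.14 untreated, so both were lowest on the dihydroberberine array, whose Alu and 18S controls stood apart. ELOC, an elongin subunit of the ligase, and ARIH2, a ligase that works with it, were lowest with both drugs, at differences of -0.21 and -0.15.

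Of 11 measured genes of DNA damage and replication stress signalling 7 were lower with dihydroberberine (median -0.26), 8 with sunitinib (-0.21) and 7 with both drugs (-0.33), where 53%, 55.6% and 52.7% of all genes were lower. H2AX, the histone marked at DNA breaks, was 2.18-fold lower with both drugs and had a log2 difference of -1.75 with dihydroberberine alone. RPA2, a subunit of the protein that coats single-stranded DNA, differed by -0.48 with dihydroberberine, -0.30 with sunitinib and -0.89 with both drugs. ATR and ATM, the kinases that signal DNA damage, were higher with both drugs, at 0.62 and 0.58.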
